A study of Arabidopsis thaliana with 4 samples.

Results

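Expansins are small proteins secreted into the plant cell wall, where they loosen the contacts between cellulose microfibrils and matrix glucans and let turgor stretch the wall. They act best at the acid pH that plasma membrane proton pumps produce, and auxin stimulates those pumps. In roots, expansins are known for growth in the elongation zone, for the outgrowth of root hairs and for the separation of the cells that overlie a lateral root as it emerges. The superfamily has alpha-expansins (EXPA), beta-expansins (EXPB) and the expansin-like groups A and B (EXLA and EXLB), whose members share the fold but for which wall loosening has not been shown.

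The 33 Arabidopsis members were taken by gene identifier from the tables of 4 root RNA libraries, among 23425 genes with reads. They were 24 EXPA, 5 EXPB, 3 EXLA and 1 EXLB genes. Roots of 8-day-old seedlings gave 1 library for each of 4 conditions, *arf7*-NAA, *arf7*-Mock, WT-NAA and WT-Mock. *arf7* carries a T-DNA insertion in *ARF7*, which encodes an auxin response factor, in the Col accession, WT is Col itself, NAA is the synthetic auxin naphthalene acetic acid, and Mock seedlings had none. The study's methods give 10 μM NAA for 4 hours, and the dose rests on them alone. By the labels the seedlings grew in the dark, while the study's methods give a photoperiod. How many seedlings went into a library is not given in the sources used here, and 1 mutant allele was used. Each condition has 1 library, so there is no replicate check on any difference, every interval and P covers counting error only, and a test compares those libraries, not the conditions. In whole roots, more RNA per cell and more cells of a type cannot be told apart.

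The library totals ran from 7.03 to 7.57 M reads. All 9 root markers (such as *SCR*, *SHR* and *PYK10*) had reads in every library. The 16 root hair genes of a marker list summed to 655, 507, 690 and 438 RPKM in *arf7*-NAA, *arf7*-Mock, WT-NAA and WT-Mock. RPKM scales the reads of a gene to the length of its transcript and to the library total. The 13 genes of the seed list summed to 471 reads in *arf7*-NAA, against 27 in *arf7*-Mock, 8 in WT-NAA and 13 in WT-Mock, and 2, 8, 9 and 9 of them were at 0 in those libraries. The 12 photosynthesis genes of a green tissue list summed to 1219, 313, 654 and 879 reads, with 1, 2, 1 and 1 of them at 0. The *arf7*-NAA library thus stands apart in seed transcripts and holds the most green tissue reads. The part of both in the comparisons that use it was not tested. In *arf7*-NAA VS *arf7*-Mock, genes of both lists were called higher, against 0.39% of all genes. Their log2 ratios ran from 1.28 to 4.29 in the green tissue list and from 3.63 to 5.56 in the seed list. The *arf7*-Mock library holds the fewest green tissue reads, and in *arf7*-Mock VS WT-Mock 4 genes of that list were called lower (log2 ratio -2.18 to -1.20). WT-NAA VS WT-Mock uses neither *arf7* library, while the other comparisons have no value without them. *ARF7* itself had 3, 8, 12 and 6 uniquely assigned reads, too few to check the mutant label.

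Of the 33 members, 26 had reads in at least 1 library. The other 7 were *EXPA2*, *EXPA12*, *EXPA19*, *EXPA23*, *EXPA24*, *EXPB4* and *EXPB5*, of which *EXPA19* is annotated as a transcribed pseudogene. A count of 0 allows up to 3 reads in a library. A further 7 had a mean under 10 reads, with at most 11 reads in any library: *EXPA1*, *EXPA5*, *EXPA10*, *EXPA16*, *EXPA21*, *EXPA22* and *EXPB2*. The 19 members left, 13 EXPA, 2 EXPB, 3 EXLA and 1 EXLB gene, carry the results. The tables count reads assigned uniquely to 1 transcript model, so a gene with several overlapping models can be undercounted. *EXPA1* (AT1G69530), an alpha-expansin known from guard cells and from lateral root formation, has 5 transcripts in the RefSeq annotation of TAIR10.1, and a single read, in WT-NAA, was counted over all its models. Its low count therefore does not show a low level.

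The tables show this limit most plainly for *EXPB3* (AT4G28250). Its reads covered 7.9% to 8.0% of a transcript of 1327 bases, which is 105 to 106 bases. A single read covered 49 bases, as the members with 1 read show. In TAIR10.1, 1 of the 4 transcripts of *EXPB3* has 18 bases at the start of exon 3, chr4:14001063-14001080 on the minus strand, that the other 3 lack. Shown are these 18 bases with 44 exonic bases on each side, a flank chosen so that the stretch has the covered length of 106 bases. The tables give no read positions, so where the reads lie was not tested. The stretch is shown because the *EXPB3* counts may come from it and not from the whole gene, with the 18 bases in capitals.
EXPB3: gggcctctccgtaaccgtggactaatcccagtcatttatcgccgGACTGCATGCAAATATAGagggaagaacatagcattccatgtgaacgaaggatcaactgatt

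Short sequences shared between members were few. Of the 33 members, 4 shared any run of 49 bases with another, *EXLA1* with *EXLA3* (9 runs, 0.845% of those in *EXLA1*) and *EXPA22* with *EXPA23* (1 run).

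The upstream sequence of a few members was read from the RefSeq TAIR10.1 genome, and its link to the values below was not tested. *EXPA7* and *EXPA18* are expressed in root hair cells, and a root hair element was first described from their promoters. The element searched is TG, then 3 or 4 bases, then GCACG or TCACG, on both strands of the 1000 bases before the gene start. It was present in 14.6% of 27443 protein-coding promoters and in 3 of 32 members with a protein-coding annotation, *EXPA7*, *EXPA18* and *EXLA2*. *EXPA7* (AT1G12560, chr1:4276505-4277969, plus strand, 3 exons) held it at 2 sites, ending 237 and 64 bases before its start. *EXPA18* (AT1G62980, chr1:23331563-23333246, plus strand, 3 exons) held it once, ending 27 bases before its start. The elements are in capitals, with 20 bases on each side.
EXPA7, distal element: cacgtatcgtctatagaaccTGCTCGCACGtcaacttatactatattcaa
EXPA7, proximal element: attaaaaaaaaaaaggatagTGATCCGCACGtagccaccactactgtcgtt
EXPA18: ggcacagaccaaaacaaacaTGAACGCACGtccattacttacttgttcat

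The members called higher with NAA in WT, *EXPA8* (AT2G40610, chr2:16948791-16950705, minus strand, 3 exons) and *EXPB1* (AT2G20750, chr2:8940833-8942706, plus strand), are shown by the 250 bases before their gene starts. Auxin response factors bind elements with the core TGTC. In capitals are the TGTC cores of either strand, GACA being the same core on the other one. *EXPA8* held 0 and *EXPB1* held 3, against a median of 1 among the protein-coding promoters, of which 74.8% held at least 1 and 19.2% at least 3. No match says only that these letters are not in this window.
EXPA8: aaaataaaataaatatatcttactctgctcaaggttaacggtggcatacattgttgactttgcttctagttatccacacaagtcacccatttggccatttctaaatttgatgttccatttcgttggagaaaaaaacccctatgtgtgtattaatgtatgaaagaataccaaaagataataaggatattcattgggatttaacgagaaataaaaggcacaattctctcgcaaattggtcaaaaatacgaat
EXPB1: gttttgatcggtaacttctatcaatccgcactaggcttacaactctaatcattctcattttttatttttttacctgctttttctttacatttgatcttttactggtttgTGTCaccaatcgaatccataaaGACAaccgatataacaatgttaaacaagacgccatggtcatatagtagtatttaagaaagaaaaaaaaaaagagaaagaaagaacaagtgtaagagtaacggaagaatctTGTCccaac

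Over 1000 bases, the auxin element TGTCTC was present in 11 of 32 members, against 39.6% of all protein-coding promoters, and TGTCGG in 5 of 32, against 14.6%. GCGGCG, a core bound by LBD proteins, was present in 3 of 32, against 7.31%. *EXPA8* held TGTCGG on the opposite strand, ending 774 bases before its start, and *EXPB3* held TGTCGG on its own strand, ending 83 bases before its start. *EXPB1* held none of these 3 elements. Each share is a description of letters and not of binding.

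Alpha-expansins held most of the summed expansin RPKM, with undercounted members as counted. They summed to 728, 650, 613 and 590 RPKM in *arf7*-NAA, *arf7*-Mock, WT-NAA and WT-Mock, beta-expansins to 65.6, 58.3, 82.3 and 41.1 RPKM, EXLA genes to 71.2, 102, 76.1 and 71.5 RPKM and *EXLB1* to 3.52, 3.80, 8.64 and 5.92 RPKM. All members together took 0.102% of the reads in *arf7*-NAA (0.100% to 0.105%, exact Clopper-Pearson 95% interval) and 0.0956% in *arf7*-Mock (0.0933% to 0.0979%). They took 0.0902% in WT-NAA (0.0881% to 0.0924%) and 0.0834% in WT-Mock (0.0813% to 0.0855%). The 4 intervals did not overlap.

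*EXPA9* (AT5G02260) had the highest RPKM, with 180, 150, 155 and 146 in *arf7*-NAA, *arf7*-Mock, WT-NAA and WT-Mock, and *EXPA4* (AT2G39700) came next in all 4 libraries. This order rests on uniquely assigned reads, so undercounted members such as *EXPA1* and *EXPB3* cannot be placed in it. In WT-Mock the order went on with *EXPA15* at 69.3 RPKM and *EXLA1* at 65.0 RPKM, whose Poisson intervals overlapped, and then *EXPA17* at 52.6 RPKM, separate from both neighbours. *EXPA14*, *EXPA7*, *EXPA13*, *EXPB1*, *EXPA11* and *EXPA18* followed between 41.6 and 22.8 RPKM, each overlapping the next in order. *EXPA8* stood apart at 12.1 RPKM from *EXPA18* above it. The lowest of the 19 was *EXLA3*, at 2.17 RPKM. It has 2 listed models, and reads covered 12.1% to 16.9% of the 1061 bases of the one with most reads. Its low RPKM therefore does not show a low level. In WT-NAA the order differed in that *EXPB1*, at 77.8 RPKM, overlapped *EXPA4*, at 78.6 RPKM.

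**Figure D1:**
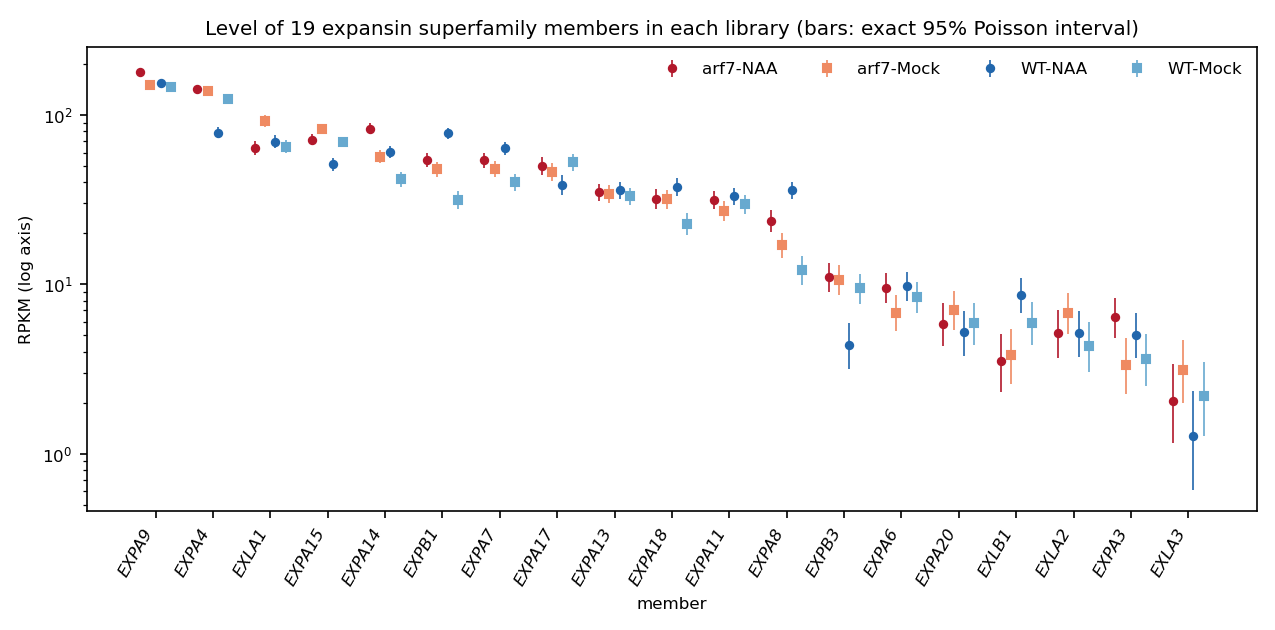
RPKM of the 19 members with a mean of at least 10 reads, in order of their mean over the 4 libraries, on a log axis. Each point is 1 library and each bar its exact 95% Poisson interval, for *arf7*-NAA, *arf7*-Mock, WT-NAA and WT-Mock. *EXPA9* and *EXPA4* lie at the top, *EXPA8* and *EXPB1* are highest in WT-NAA, *EXPB3* is lowest there, and *EXPA13* spans the least (33.1 to 35.9 RPKM).

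The members differed in how far their levels moved. The highest library was 2.97 times the lowest for *EXPA8*, 2.53 times for *EXPB3*, 2.46 times for both *EXPB1* and *EXLB1*, and 1.09 times for *EXPA13*. Among abundant members *EXPA9* spanned 1.23 times and *EXPA4* spanned 1.81 times.

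The first comparison, WT-NAA VS WT-Mock, asked which members auxin changed in WT roots. A gene was called with P below 0.0001 in an exact binomial test of its reads given the library totals and a ratio of at least 2-fold. *EXPA8* and *EXPB1* rose and *EXPB3* fell, of 25 members tested. Over all genes tested, 0.418% were called higher and 0.668% were called lower. With a coefficient of variation between replicates of 0.2 assumed in an edgeR exact test, 0 members were called, and 27 genes in all against 244. *EXPB3* also lost its call with a pseudocount of 1 RPKM (-0.96). The median log2 ratio of the 19 members was 0.15, against -0.02 over all genes with at least 10 reads on average, and 13 of the 19 were above 0.

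*EXPA8*, an alpha-expansin, had 184, 136, 294 and 101 reads in *arf7*-NAA, *arf7*-Mock, WT-NAA and WT-Mock, or 23.7, 17.0, 35.9 and 12.1 RPKM. WT-NAA held the most and WT-Mock the fewest, with both *arf7* libraries between them. The log2 ratio of WT-NAA over WT-Mock was 1.57 (95% interval 1.24 to 1.91, P = 6.6e-24, exact binomial test), a 2.97-fold rise.

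*EXPB1*, a beta-expansin, had 437, 393, 658 and 273 reads in *arf7*-NAA, *arf7*-Mock, WT-NAA and WT-Mock, or 54.5, 47.6, 77.8 and 31.6 RPKM. Its libraries fell in the same order as those of *EXPA8*, the *arf7* libraries again in between. The log2 ratio of WT-NAA over WT-Mock was 1.299 (1.09 to 1.51, exact P = 2.8e-39).

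*EXPB3*, also a beta-expansin, had 103, 102, 43 and 95 reads in *arf7*-NAA, *arf7*-Mock, WT-NAA and WT-Mock. WT-NAA was low and the other 3 libraries lay close together. The log2 ratio of WT-NAA over WT-Mock was -1.11 (-1.67 to -0.58, exact P = 1.7e-05). With reads on 106 bases at most, this value may describe the transcript with the 18 bases and not the gene.

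A further 5 members passed P below 0.0001 with less than 2-fold, which makes 8 of 25 with P alone, against 6.55% of all genes. P alone is reached by smaller ratios where reads are many, as in this family. The root hair members *EXPA7* (log2 ratio 0.66, 0.46 to 0.87) and *EXPA18* (0.72, 0.45 to 1.01) were higher in WT-NAA, as was *EXPA14* (0.54, 0.35 to 0.73), which is known as a target of *LBD18* in lateral root emergence. *EXPA4* (-0.67, -0.80 to -0.54) and *EXPA15* (-0.44, -0.60 to -0.27) were lower.

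*EXPA4* had 1340, 1331, 780 and 1263 reads in *arf7*-NAA, *arf7*-Mock, WT-NAA and WT-Mock. WT-NAA again was the library that differed, and the other 3 lay between 1263 and 1340 reads. *EXPA15* (AT2G03090) had 680, 815, 515 and 712 reads, the fewest also in WT-NAA. *EXPA17* (AT4G01630), another member tied to *LBD18* and lateral roots, had 271, 255, 220 and 306 reads, and its log2 ratio of -0.45 (-0.70 to -0.19) came with exact P = 4.8e-04 and did not pass. *EXPA9* (0.09, -0.02 to 0.20), *EXPA11* (0.15, -0.10 to 0.40), *EXPA13* (0.12, -0.11 to 0.35) and *EXLA1* (0.10, -0.08 to 0.28) had intervals that include 0 and exclude a 2-fold change. *EXPA3* counted 45 in WT-NAA against 33 in WT-Mock, and had a wide interval (-0.20 to 1.17). *EXPA21* had 9 reads in WT-NAA against 0 in WT-Mock, with a lower 95% limit of 1.01 on the log2 ratio and exact P = 0.0018, and did not pass.

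The second comparison, *arf7*-NAA VS *arf7*-Mock, asked the same of the mutant. No member of 24 tested was called, against 0.39% of all genes called higher and 0.386% called lower. With P alone 3 members passed, against 4.58% of all genes. *EXPA14* and *EXPA9* were higher in *arf7*-NAA and *EXLA1* lower. The median log2 ratio was 0.06 over the 19 members and -0.02 over all genes. The seed list had 471 reads in *arf7*-NAA against 27 in *arf7*-Mock, and the green tissue list 1219 against 313. Their part in the values was not tested.

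*EXPA14* (AT5G56320) had 700, 494, 540 and 379 reads in *arf7*-NAA, *arf7*-Mock, WT-NAA and WT-Mock. Each NAA library lay above the Mock library of its genotype, by a log2 ratio of 0.54 (0.38 to 0.71) in *arf7* and 0.54 (0.35 to 0.73) in WT. *EXPA9* had 1580, 1352, 1439 and 1379 reads, with a log2 ratio of 0.27 (0.16 to 0.37) in *arf7*.

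*EXLA1* (AT3G45970), an expansin-like A gene, had 445, 658, 511 and 487 reads in *arf7*-NAA, *arf7*-Mock, WT-NAA and WT-Mock. Only *arf7*-Mock stood high, and the log2 ratio of *arf7*-NAA over *arf7*-Mock was -0.52 (-0.70 to -0.35). All 3 EXLA genes had a value below 0 here, with *EXLA2* at -0.39 (-1.02 to 0.22) and *EXLA3* at -0.58 (-1.62 to 0.43), both with intervals that include 0. *EXPA8* (0.48, 0.15 to 0.81, exact P = 0.0036) and *EXPB1* (0.19, -0.01 to 0.39, exact P = 0.056) did not pass in *arf7*. *EXPA5*, known as a target of brassinosteroid signalling, had 7 reads in *arf7*-NAA and 0 in *arf7*-Mock, with a lower 95% limit of 0.57 on the log2 ratio and exact P = 0.0071, and did not pass.

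A comparison of the responses themselves took the NAA response in *arf7* minus that in WT. It used all 4 libraries and an exact conditional test of the 4 counts. Of 23 members tested, 2 were called with a lower response in *arf7*, *EXPA8* and *EXPB1*, and 0 with a higher one. Over all genes, 0.829% were called lower and 0.542% higher, and 4.76% passed P alone.

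For *EXPB1* the log2 ratio of NAA over Mock was 0.19 in *arf7* and 1.299 in WT, a difference of -1.10 (-1.39 to -0.81, P = 1.4e-14, exact conditional test). For *EXPA8* it was 0.48 in *arf7* and 1.57 in WT, a difference of -1.09 (-1.57 to -0.62, exact P = 2.4e-06). For both, the ratio of *arf7*-Mock over WT-Mock was also above 0, as given below, so the Mock libraries enter the difference along with the NAA libraries.

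*EXPA4* and *EXLA1* differed with P alone, which makes 4 of 23. *EXPA4* had a log2 ratio of 0.05 in *arf7* and -0.67 in WT, a difference of 0.72 (0.55 to 0.89, exact P = 7.4e-17). *EXLA1* had -0.52 in *arf7* and 0.10 in WT, a difference of -0.62 (-0.88 to -0.37, exact P = 1.1e-06). *EXPB3* had the widest gap upward, 1.17 (0.48 to 1.86), but with exact P = 5.3e-04 it did not pass. *EXPA18* (-0.72, -1.11 to -0.33, exact P = 2.4e-04), *EXPA7* (-0.49, -0.79 to -0.19, exact P = 0.0010) and *EXPA17* (0.58, 0.21 to 0.94, exact P = 0.0013) did not pass either. The difference of *EXPA14* was 0.00 (-0.25 to 0.26) and that of *EXPA11* was 0.07 (-0.30 to 0.44). The median difference was 0.00 over the 19 members and 0.00 over all genes, with 10 of the 19 above 0.

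**Figure D2:**
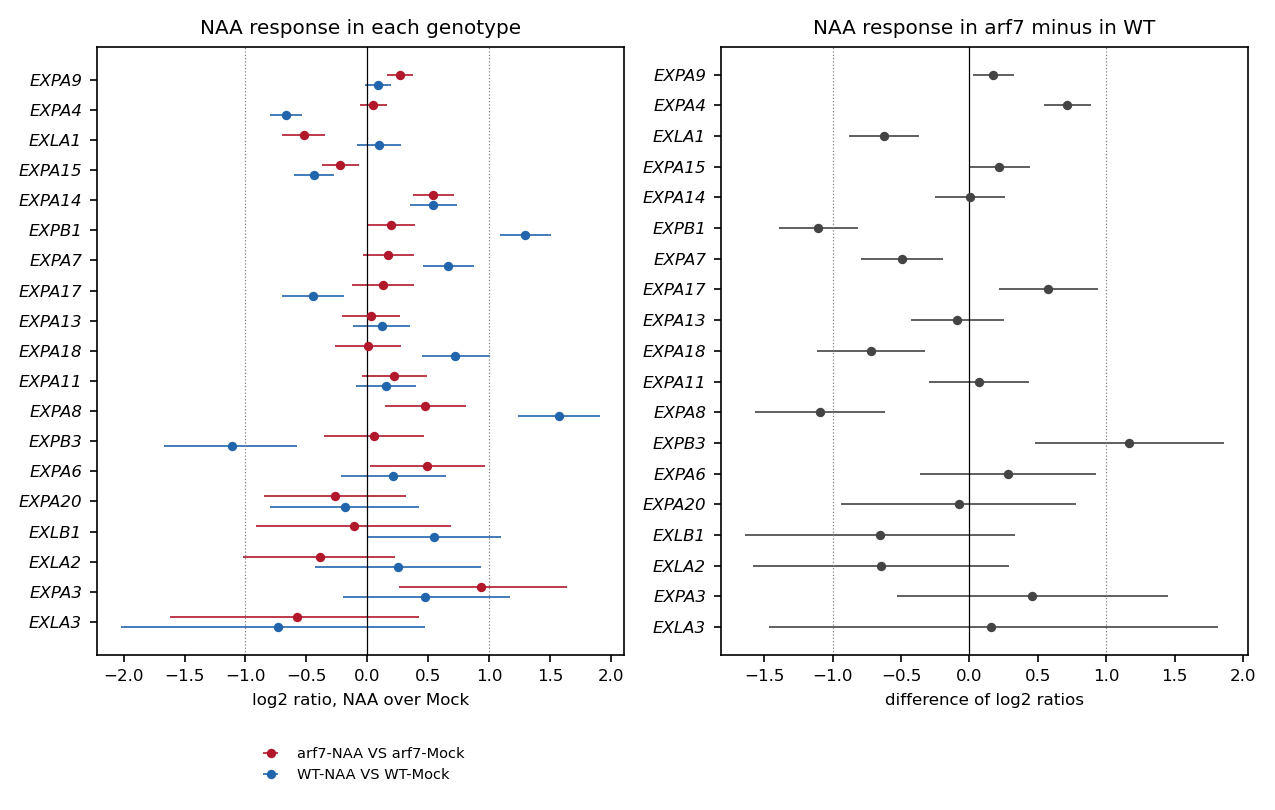
On the left, the log2 ratio of NAA over Mock for the 19 members in *arf7* (red) and in WT (blue). On the right, the *arf7* value minus the WT value. Bars are exact 95% intervals of counting error and dotted lines mark 2-fold. *EXPA8* and *EXPB1* exceed 2-fold in WT only, at 1.57 and 1.299, *EXPB3* lies at -1.11 in WT and 0.06 in *arf7*, and the paired values of *EXPA14* coincide at 0.54.

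The third comparison, *arf7*-Mock VS WT-Mock, asked what the mutation changed without added auxin. No member of 23 tested was called, against 0.466% of all genes called higher and 0.577% called lower. With P alone, 3 members passed and were higher in *arf7*-Mock, against 7.03% of all genes. The green tissue list, with 313 reads in *arf7*-Mock against 879 in WT-Mock, also differs between these libraries, and its part in the values was not tested. The members past P were *EXPB1* (log2 ratio 0.59, 0.37 to 0.82), *EXLA1* (0.50, 0.33 to 0.67) and *EXPA14* (0.45, 0.25 to 0.65). *EXPA8* (0.50, 0.11 to 0.88, exact P = 0.0093), *EXPA18* (0.48, 0.19 to 0.78, exact P = 8.4e-04) and *EXPA15* (0.26, 0.11 to 0.41, exact P = 4.1e-04) had values above 0 and did not pass. The median over the 19 members was 0.25, against 0.01 over all genes, with 14 of the 19 above 0. *EXLB1* had the lowest value, -0.64 (-1.35 to 0.04).

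The fourth comparison, *arf7*-NAA VS WT-NAA, asked what the mutation changed under auxin. It shares the WT-NAA library with the first comparison, so the values of both turn on the same counts. The seed list had 471 reads in *arf7*-NAA against 8 in WT-NAA, and the green tissue list 1219 against 654. The part of these lists in the values was not tested. *EXPB3* was called higher in *arf7*-NAA and *EXLB1* lower, of 26 members tested, against 0.591% and 0.805% of all genes. With the assumed coefficient of variation of 0.2, 0 members were called, and 96 genes in all against 314. *EXPB3*, with 103 reads in *arf7*-NAA and 43 in WT-NAA, had a log2 ratio of 1.34 (0.81 to 1.89, exact P = 1.2e-07). *EXLB1* (AT4G17030), the only expansin-like B gene, had 27, 30, 70 and 49 reads in *arf7*-NAA, *arf7*-Mock, WT-NAA and WT-Mock. Both *arf7* libraries lay below both WT libraries. Its log2 ratio of *arf7*-NAA over WT-NAA was -1.30 (-1.99 to -0.64, exact P = 3.9e-05).

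With P alone 8 members passed, against 6.27% of all genes. *EXPA4* (0.86, 0.73 to 0.99), *EXPA15* (0.48, 0.31 to 0.65), *EXPA14* (0.45, 0.29 to 0.62) and *EXPA9* (0.21, 0.11 to 0.32) were higher in *arf7*-NAA along with *EXPB3*. *EXPA8* (-0.60, -0.87 to -0.33) and *EXPB1* (-0.51, -0.69 to -0.34) were lower along with *EXLB1*. For 6 of the 19 members (*EXPA7*, *EXPA8*, *EXPA13*, *EXPA18*, *EXPB1* and *EXLA1*) the value of *arf7* over WT was above 0 in the Mock libraries and below 0 in the NAA libraries, against 22.1% of all genes with a mean of at least 10 reads. This count uses signs only. The intervals of *EXPA13* include 0 in the Mock (-0.19 to 0.29) and NAA libraries (-0.28 to 0.19). That of *EXLA1* includes 0 in the NAA libraries (-0.31 to 0.06). The root hair pair had -0.23 (-0.42 to -0.03) for *EXPA7* and -0.24 (-0.50 to 0.02) for *EXPA18* in the NAA libraries, neither past the threshold. The median over the 19 members was 0.01, equal to that over all genes to the digits given.

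Over the 4 comparisons and the difference between responses, 11 of the 19 members (57.9%) passed P in at least 1, and 8 in none, against 18.7% of all 16518 genes with a mean of at least 10 reads that passed in at least 1. The share over all genes was not matched for reads, and P alone is reached by smaller ratios where reads are many. The 8 were *EXPA3*, *EXPA6*, *EXPA11*, *EXPA13*, *EXPA17*, *EXPA20*, *EXLA2* and *EXLA3*. Those with few reads, such as *EXPA3* and *EXLA3*, could pass only at ratios above 2-fold, so not passing does not show a stable level. *EXPA3*, the member with the fewest reads among those the study discusses, had 54, 29, 45 and 33 reads in *arf7*-NAA, *arf7*-Mock, WT-NAA and WT-Mock, both NAA libraries above both Mock libraries. Its log2 ratio of NAA over Mock was 0.94 (0.26 to 1.64) in *arf7* and 0.48 in WT. *EXPA11* had 253, 223, 279 and 256 reads, within a span of 1.22 times in RPKM.

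**Figure D3:**
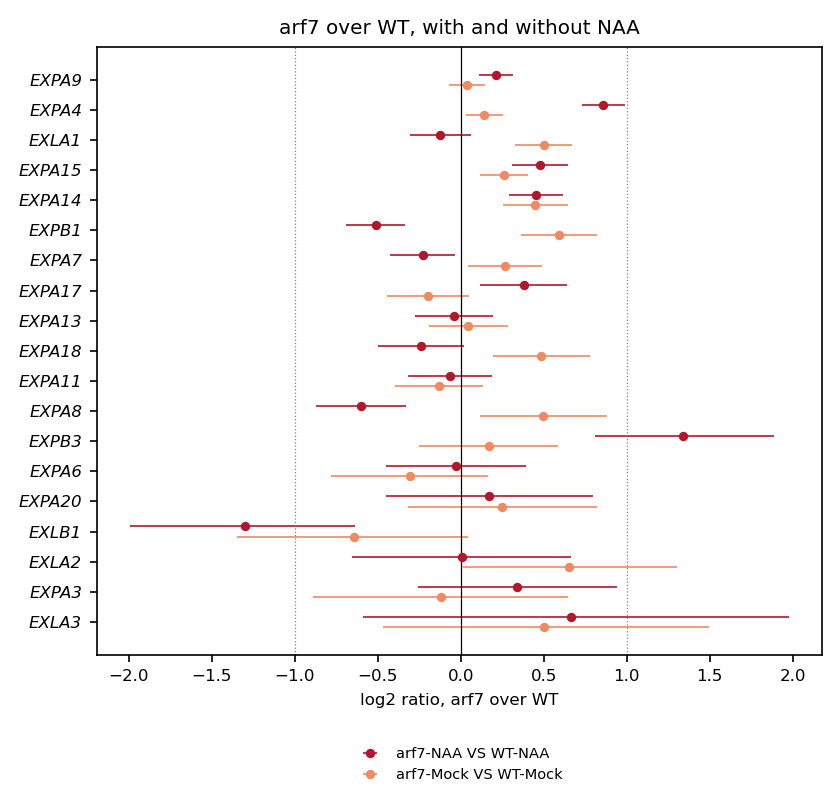
Log2 ratio of *arf7* over WT for the 19 members in the NAA libraries (red) and in the Mock libraries (orange), with exact 95% intervals of counting error and dotted lines at 2-fold. *EXPB3* (1.34) and *EXLB1* (-1.30) pass 2-fold in the NAA libraries. *EXPA14* sits at 0.45 in both, and *EXPA8* and *EXPB1* lie on opposite sides of 0 in the Mock and NAA libraries.

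Root hair genes were set beside *EXPA7* and *EXPA18*, since those members belong to root hair cells. *EXPA7* had 393, 359, 486 and 313 reads in *arf7*-NAA, *arf7*-Mock, WT-NAA and WT-Mock, and *EXPA18* had 225, 231, 280 and 173. For both, WT-NAA was highest and WT-Mock lowest. The list of 16 other root hair genes had a median log2 ratio of 0.54 in WT-NAA VS WT-Mock. All 16 were above 0, 1 was called, *PRP1* (1.27), which encodes a wall protein of root hairs, and 8 passed P alone. Over all genes 47.1% were above 0, 0.418% were called higher and 6.55% passed P alone. *PRP3*, a related protein with the most reads of the list, had 0.82, and *LRX1*, a wall protein with a leucine-rich repeat, had 0.62. In *arf7*-NAA VS *arf7*-Mock the list had a median of 0.24, 12 of 16 above 0 and 0 called. The NAA response in *arf7* minus that in WT was below 0 for 14 of the 16, with a median of -0.36, and 1 was called, *PRP1*, against 0.829% of all genes called lower.

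**Figure D4:**
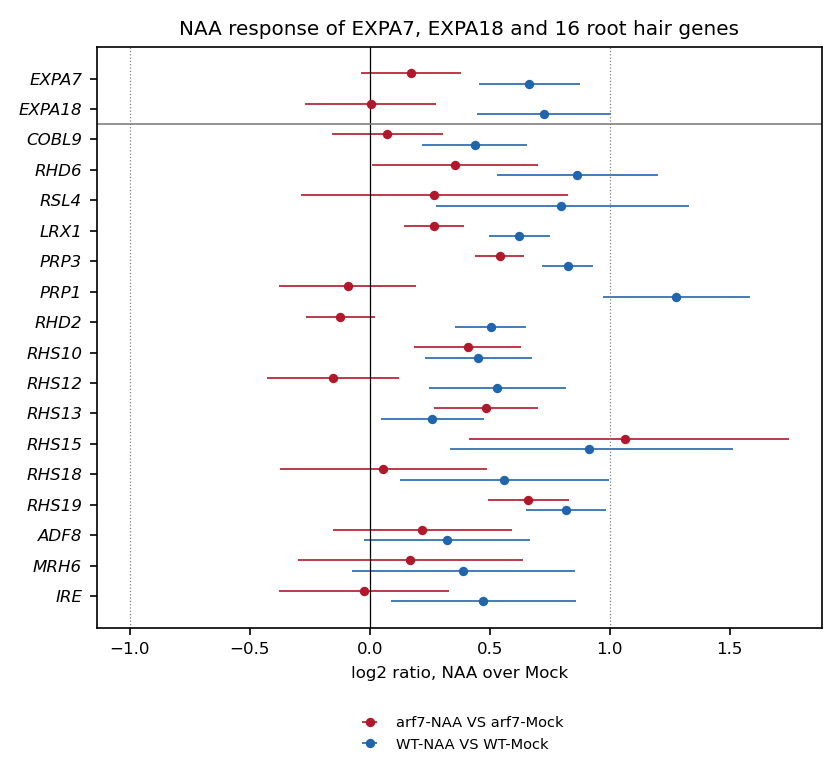
Log2 ratio of NAA over Mock in *arf7* (red) and in WT (blue) for *EXPA7* and *EXPA18*, above the line, and for 16 other root hair genes, with exact 95% intervals of counting error. In WT all 18 genes lie above 0, *EXPA7* at 0.66 and *EXPA18* at 0.72. *PRP1* at 1.27 is the one called.

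Other wall and auxin genes gave a background for the expansins. Of the 11 plasma membrane proton pumps, the AHA genes, 9 had reads and 0 were called in any of the comparisons. Their median log2 ratio was -0.12 in WT-NAA VS WT-Mock. The pumps with the most reads, *AHA1* (0.15, 0.10 to 0.19) and *AHA2* (0.35, 0.28 to 0.43), were higher there with P alone. *AHA4* (-0.69, -0.94 to -0.43) was lower with P alone. The summed RPKM of the pumps was 554 in WT-NAA and 501 in WT-Mock. Reads of *AHA2* covered 13.1% of its transcript, so it can be undercounted. Of 14 genes of cellulose and xyloglucan synthesis, such as the cellulose synthases *CESA1* and *CESA3*, 0 were called, and their median was -0.04 in WT-NAA VS WT-Mock. In *arf7*-Mock VS WT-Mock all 12 of them with at least 10 reads on average lay above 0, with a median of 0.19, and 6 passed P alone, against 52.0% of all genes above 0 and 7.03% past P alone.

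In the list of 12 lateral root auxin genes, those with a mean of at least 10 reads had a median of 0.68 in WT-NAA VS WT-Mock. *LBD29*, a transcription factor that acts downstream of *ARF7*, rose (1.41), and so did *PRH1* (1.63), the gene the study went on to characterise. Both were called, against 0.418% of all genes called higher. No gene of this list was called in *arf7*-NAA VS *arf7*-Mock, and none was called for the difference between the responses. In *arf7*-NAA VS WT-NAA, 3 of the 12 were called lower, *LBD18* (-1.73), *LBD29* (-3.40) and *PRH1* (-2.71), against 0.805% of all genes. In *arf7*-Mock VS WT-Mock, *LBD29* (-2.84) was called lower, against 0.577% of all genes, and *PRH1* (-2.58, -4.56 to -1.04) did not pass. Of the members tied to *LBD18*, *EXPA14* had 0.45 and *EXPA17* had 0.38 (0.12 to 0.64, not past the threshold) in the comparison in which *LBD18* had -1.73. That *LBD18* value comes from 12 reads in *arf7*-NAA and 42 in WT-NAA. A link between *LBD18* and these members was not tested.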

How the data were processed

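RNA-seq of seedling roots gave 4 libraries, grouped by their labels. The labels describe growth in the dark, the study's methods a photoperiod. The authors deposited for each transcript model the count of uniquely assigned reads, its RPKM (recomputed here from the counts, lengths and totals) and the percent coverage of the transcript. Models without reads were not listed by the authors, and the counts sum to the library totals in the deposited headers. The aligner and build are not given in the sources used here. The 4 deposited comparison tables hold log2 ratios, P-values and false discovery rates, and these and their 16 per-sample columns, which repeat the library tables, were not used.

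Reads were summed over the models of a gene. The log2 ratio was scaled by the library totals, with 3 reads set for 0 and none given where both counts were at most 3. Genes were called with an exact two-sided binomial test across all genes, P below 0.0001 and a change of at least 2-fold, the limits given in the study's text, and the difference between responses with an exact conditional test. Medians used genes with a mean of at least 10 reads. Intervals are exact 95% intervals of counting error (Clopper-Pearson for ratios and shares, Poisson for RPKM). Python 3.11.15, NumPy 2.4.6, pandas 2.3.3 and SciPy 1.17.1 were used, and the alternatives used edgeR 4.0.16 and DESeq2 1.42.0 in R 4.3.3. Tests were checked on simulated data. For the binomial and conditional tests these were Poisson counts without spread between replicates, so the check does not cover such spread. Named genes are members called or past P alone in any comparison, the 8 with the highest mean RPKM and 5 that the study's text names, and from other lists those called and those with most reads. Members in the low-count group that are named with values (*EXPA1*, *EXPA5* and *EXPA21*), and *EXLA2*, *EXLA3* and *EXPA13*, were chosen after their values were seen. Members and lists were chosen with earlier results of these data known. Gene positions, transcripts and sequences are from RefSeq TAIR10.1, in which all 33 members matched by locus tag and the authors' coordinates of the 26 listed members overlapped them.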

Additional observations from a re-analysis of the deposited data

Results flagged for a closer look

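*EXPA8* and *EXPB1* were singled out because their NAA responses differed between the genotypes in a test of the difference itself. The log2 ratio of NAA over Mock was lower in *arf7* than in WT by a difference of -1.09 for *EXPA8* and -1.10 for *EXPB1*. The test covers counting error in 4 libraries and no spread between seedlings. The *arf7*-NAA library holds 471 reads of the seed list, against 27 in *arf7*-Mock, 8 in WT-NAA and 13 in WT-Mock, and the green tissue list has 1219 reads in *arf7*-NAA, 313 in *arf7*-Mock, 654 in WT-NAA and 879 in WT-Mock, and the part of these in both differences was not tested.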

How the results depend on the processing

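With edgeR TMM scaling, DESeq2 size factors, the transcript model with most reads, a minimum of 10 reads or an adjusted p under 0.001, the same members were called in every comparison (3 in WT-NAA VS WT-Mock, 0 in *arf7*-NAA VS *arf7*-Mock, 0 in *arf7*-Mock VS WT-Mock, 2 in *arf7*-NAA VS WT-NAA and 2 for the difference between responses). With P under 0.0001 at any ratio the counts were 8, 3, 3, 8 and 4, and they kept all of those called. When a coefficient of variation between replicates of 0.2 or 0.4 was assumed in an edgeR exact test, the count in WT-NAA VS WT-Mock was 0 and that in *arf7*-NAA VS WT-NAA was 0. The difference between responses was not run with assumed variation, so its 2 calls were not tried in that setting. The coefficients are assumptions, since these libraries give no spread between replicates. In WT-NAA VS WT-Mock that exact test at 0.2 gave p = 5.1e-04 for *EXPA8* and 0.0025 for *EXPB1*. Of 404 values of the medians and named members under the alternatives, 393 were labelled the same, 11 lost their call and 0 values of named members changed sign. Most values of named members had no call in the main setting, so they had none to lose. A median was labelled the same if it stayed within the interquartile range of the members. Of the 11 that lost their call, 10 came from the assumed variation. The other was *EXPB3* in WT-NAA VS WT-Mock, -0.96 with a pseudocount of 1 RPKM. No paired analysis was possible because the labels give no replicate numbers and each condition has 1 library. Counts of uniquely assigned reads limit genes with several models, *EXPB3* and *EXPA1* above all, and *EXLA3* as well. Members under 10 reads, and others with few reads such as *EXPA3* and *EXLA3*, cannot pass the threshold at a 2-fold change.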
